A study of Mus musculus with 18 samples.

Results

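The genes described here are 10 mouse genes of H3K9 methylation and repeat silencing: the methyltransferase genes Suv39h2, Ehmt1, Ehmt2 and Setdb1, the Setdb1 partner gene Atf7ip, the corepressor gene Trim28, the heterochromatin protein genes Cbx1, Cbx3 and Cbx5, and Morc3. They are a list of names, taken out of 21887 protein-coding genes with no threshold on a measured value, but with earlier results of these data known. At each gene, the peaks of 2 histone marks were read over the RefSeq gene body with 5 kb added on each side. H3K27ac is a mark of active promoters and enhancers, and H3K4me3 is a mark of promoters that can extend into the bodies of active genes. The cells were mouse embryonic stem cells on a C57BL/6 background, grown with LIF and the inhibitors CHIR99021 and PD0325901, in 3 groups: Mettl3 Control, Mettl3 KO1 and Mettl3 KO2. The Mettl3 protein is the catalytic part of the complex that places N6-methyladenosine (m6A) on RNA. Each group had 2 libraries per mark, 12 in all, and 6 input libraries were not analysed here. The labels do not say how the knockout lines were made, whether each is 1 clone, or whether the 2 libraries of a group stem from separate cultures. The p-values thus rest on a spread between libraries that may be technical only.

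Methylation of lysine 9 on histone H3 marks silent chromatin. In embryonic stem cells it keeps endogenous retroviruses and other repeats quiet: KRAB zinc finger proteins bind the repeat, recruit Trim28, and Trim28 brings Setdb1, which trimethylates the lysine. Ehmt1 and Ehmt2 act as a pair that mono- and dimethylates it in euchromatin, Suv39h2 trimethylates it in pericentromeric heterochromatin, and the heterochromatin proteins bind the methylated tail. The nuclear m6A reader Ythdc1 has been tied to Setdb1 at retrotransposons in mouse embryonic stem cells.

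All 10 genes had their start in RefSeq. The 250 bases upstream of the start are shown for 6 of them (GRCm38.p6, the assembly of mm10, from RefSeq), because the results below compare the gene start with the gene body. Capitals mark every match, on either strand, to the GC box GGGCGG, the CCAAT box, the ETS-type motif CCGGAAG, or the TATA-type motif TATAAA. Ehmt1 lies at chr2:24790769-24919643 and its stretch at chr2:24919610-24919859, Suv39h2 at chr2:3455815-3474986 and chr2:3474987-3475236, and Cbx5 at chr15:103191546-103239904 and chr15:103239853-103240102, all 3 on the minus strand. Atf7ip lies at chr6:136518789-136610850 on the plus strand, with its stretch at chr6:136518601-136518850. Setdb1, the member with the least H3K4me3, lies at chr3:95323525-95357202 on the minus strand, with its stretch at chr3:95357203-95357452. Cbx3, whose start was the most evenly covered, lies at chr6:51470154-51483704 on the plus strand, with its stretch at chr6:51470366-51470615.
Ehmt1: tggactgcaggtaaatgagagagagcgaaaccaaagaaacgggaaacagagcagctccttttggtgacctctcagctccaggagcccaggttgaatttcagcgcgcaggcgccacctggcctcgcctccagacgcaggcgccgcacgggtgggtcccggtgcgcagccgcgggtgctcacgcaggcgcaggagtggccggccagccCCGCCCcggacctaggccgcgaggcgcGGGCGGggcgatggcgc
Suv39h2: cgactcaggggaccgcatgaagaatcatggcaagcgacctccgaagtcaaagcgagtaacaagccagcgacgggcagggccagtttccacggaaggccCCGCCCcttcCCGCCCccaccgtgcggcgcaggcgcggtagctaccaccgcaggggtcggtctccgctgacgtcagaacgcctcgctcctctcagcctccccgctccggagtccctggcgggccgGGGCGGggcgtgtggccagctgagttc
Cbx5: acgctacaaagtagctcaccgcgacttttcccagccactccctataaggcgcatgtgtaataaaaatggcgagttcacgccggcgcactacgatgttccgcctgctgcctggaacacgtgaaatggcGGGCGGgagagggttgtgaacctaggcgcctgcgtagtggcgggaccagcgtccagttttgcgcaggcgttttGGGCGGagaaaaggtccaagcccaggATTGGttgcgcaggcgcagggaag
Atf7ip: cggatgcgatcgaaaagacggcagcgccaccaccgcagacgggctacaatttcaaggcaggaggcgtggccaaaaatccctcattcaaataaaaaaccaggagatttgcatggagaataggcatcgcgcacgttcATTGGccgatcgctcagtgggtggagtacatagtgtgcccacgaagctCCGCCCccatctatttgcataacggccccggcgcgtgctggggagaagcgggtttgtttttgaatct
Setdb1: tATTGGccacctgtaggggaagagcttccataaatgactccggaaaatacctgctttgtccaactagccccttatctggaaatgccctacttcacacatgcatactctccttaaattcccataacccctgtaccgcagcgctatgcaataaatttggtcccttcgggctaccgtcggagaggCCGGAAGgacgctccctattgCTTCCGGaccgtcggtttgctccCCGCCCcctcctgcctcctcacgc
Cbx3: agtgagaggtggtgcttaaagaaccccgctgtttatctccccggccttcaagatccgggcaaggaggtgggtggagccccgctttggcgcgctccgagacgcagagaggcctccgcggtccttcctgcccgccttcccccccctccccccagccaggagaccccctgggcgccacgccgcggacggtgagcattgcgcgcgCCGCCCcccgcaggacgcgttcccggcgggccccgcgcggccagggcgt

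The GC box was in the 250 upstream bases of 10 of 10 members, with 1 to 3 matches each, and in 32.7% of the 32851 RefSeq promoters searched over the same length. CCAAT was in 4 of 10 members and in 33.8% of promoters. CCGGAAG was in 1 member, Setdb1, with 2 matches, and in 6.91% of promoters. TATAAA was in 0 of 10 members and in 12.4% of promoters. The members held 13 to 29 CpG dinucleotides in this stretch, and the median over all promoters was 6. H3K4me3 peaks covered all 250 bases in 6 of 6 libraries at Cbx3, Cbx5 and Ehmt2. They covered 82 to 117 of these bases at Ehmt1, 42 to 110 at Suv39h2 and 0 to 127 at Setdb1, where 3 of 6 libraries had none.

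The other members lie at chr17:34898463-34914073 (Ehmt2, plus strand), chr7:13024152-13031032 (Trim28, plus), chr11:96788680-96808982 (Cbx1, plus) and chr16:93832121-93876077 (Morc3, plus). Most share their regions with neighbours. The starts of Cbx5 and Hnrnpa1 lie 545 bp apart and point away from each other, as do those of Cbx3 and Hnrnpa2b1, 722 bp apart, and of Atf7ip and the long noncoding RNA Gm44140, 98 bp apart. Most of Suv39h2 lies inside the end of Dclre1c (chr2:3424061-3474211, plus strand). The region of Ehmt2 takes in Zbtb12, which starts 3915 bp upstream, and the start of Slc44a4, and the region of Setdb1 takes in a start of Cers2 beyond its end. That of Trim28 takes in Gm31649, Chmp2a and the end of Ube2m, the noncoding RNA LOC108169175 lies inside Atf7ip, the pseudogene Gm11517 lies inside Cbx1, Plbd1 ends beside Atf7ip, and Gm30881 overlaps the start of Morc3. A peak in such a place cannot be assigned to 1 gene.

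List size differed by genotype. Control libraries had the shortest H3K27ac lists (29973 and 32957 peaks) and the longest H3K4me3 lists (83644 and 81608). The H3K27ac lists of KO1 numbered 40210 and 39048, those of KO2 65398 and 61383. For H3K4me3, KO1 lists numbered 69995 and 69320, KO2 lists 72303 and 66483. The lists give no read totals, so depth is unknown. At Mettl3 itself H3K4me3 peaks covered 2615 and 2886 bp in Control, 1516 and 1659 bp in KO1 and 1919 and 1764 bp in KO2, which does not check the deletion, since a promoter can keep its marks when coding sequence is lost. Of 10 stem cell marker genes, 9 had a peak of each mark in the promoter window in 12 of 12 libraries. Esrrb had none in its window. Windows used the most upstream RefSeq start listed for a gene, and peaks outside the window were not counted here. H3K27ac was at 0 in the windows of all 10 fibroblast and all 6 primitive endoderm markers, and was found at 0 of 6 trophectoderm markers in Control, 1 or 2 in KO1 and 2 in KO2, with 0 bp in Control, 263 to 544 bp in KO1 and 1628 to 1852 bp in KO2 summed over that list. H3K4me3 lay at 3 to 5 of the 10 fibroblast, 5 or 6 of the 6 primitive endoderm and 3 to 5 of the 6 trophectoderm windows. The part of other cells in the results below was not tested.

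H3K4me3 peaks covered less of 7 of the 10 genes in KO2 than in Control and less of 4 of them in KO1, and no member was called higher. Covered length in bp was compared as log2(bp + 500), by limma over all 13698 genes with enough H3K4me3, at an adjusted p of 0.05. All 10 members passed the filter of a mean of 500 bp for both marks. Of all tested genes, 15.4% were lower in KO1 and 25.1% in KO2, and 1.76% and 5.11% were higher. The members' median log2 change was -0.27 in KO1 and -0.55 in KO2, where the medians of all tested genes were -0.16 and -0.16. Both comparisons share the Control libraries. Both KO2 libraries lay below both Control libraries at 10 of 10 members and at 50.4% of all genes, and both KO1 libraries did at 7 of 10 members and at 53.4% of all genes. In such bulk chromatin, fewer marked cells and less mark per cell cannot be told apart.

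**Figure D1:**
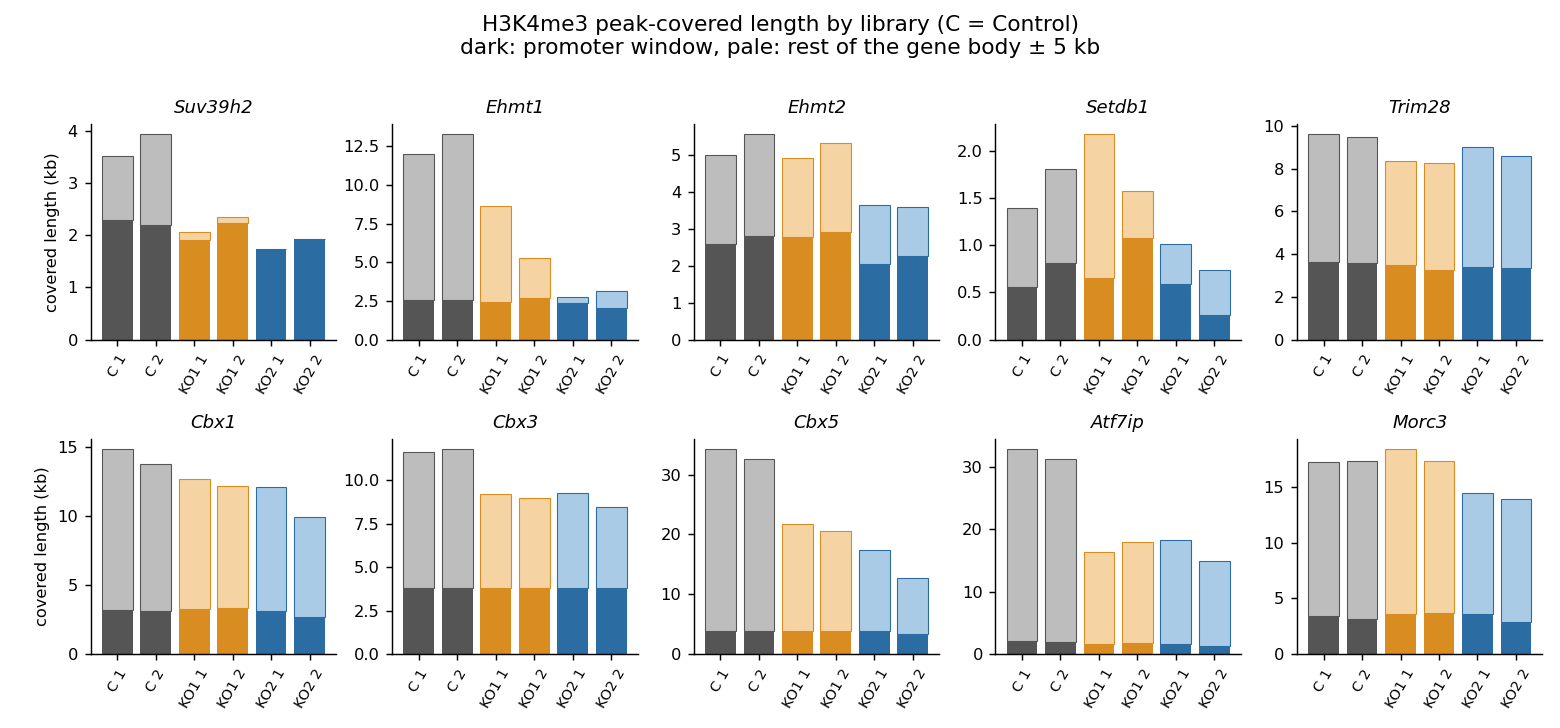
H3K4me3 peak-covered length in kb (vertical axis, from 0, own scale per gene) in each of the 6 libraries (horizontal axis). Dark bars are the promoter window (2 kb to either side of the gene start) and pale bars the rest of the gene body with 5 kb added on each side. At every gene but Setdb1 and Morc3 the pale part is shorter in each knockout library than in either Control library, though barely so at Ehmt2. At Atf7ip and Trim28 the dark part is shorter too.

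Ehmt1, which encodes the partner of Ehmt2, showed the largest fall among the members in KO2. Its covered length was 12039 and 13277 bp in Control, 8616 and 5292 bp in KO1, and 2754 and 3116 bp in KO2. The 3 groups did not overlap, and KO2 kept 23.2% of the Control mean. The log2 change was -1.94 ± 0.19 (SE) in KO2 (limma adjusted p = 0.00041) and -0.86 ± 0.19 in KO1 (0.0195). The KO1 call was lost without Control 1 (adjusted p = 0.092), Control 2 (0.118) or KO1 2 (0.102), and after quantile normalization (0.162). In Control the peaks ran as a broken train from the start to 31.9 and 29.8 kb into the gene. KO1 peaks reached 29.0 and 28.7 kb with long gaps, and KO2 peaks ended at 2.4 and 8.3 kb. The Control libraries had 33 and 25 peaks there, the KO1 libraries 14 each, and the KO2 libraries 2 and 9.

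Suv39h2, a methyltransferase gene, had 3522 and 3937 bp of H3K4me3 in Control, 2062 and 2361 bp in KO1, and 1743 and 1925 bp in KO2. Each Control library lay above each knockout library. The log2 change was -0.64 ± 0.12 in KO1 (limma adjusted p = 0.00941) and -0.86 ± 0.12 in KO2 (0.00139). Leaving out Control 2 (0.0728) or KO1 1 (0.0647) ended the KO1 call, as did quantile normalization (0.0662). Beyond the promoter window the Control libraries held 1225 and 1747 bp, the KO1 libraries 153 and 132 bp, and the KO2 libraries 0 and 0 bp. The last Control peak in the gene ended 6.6 and 9.0 kb from the start, and the last knockout peaks ended at 1.5 to 2.2 kb. All the peaks beyond the promoter window also lie inside Dclre1c, so they cannot be assigned to Suv39h2 alone.

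Ehmt2 had 5022 and 5570 bp in Control, 4921 and 5333 bp in KO1, and 3643 and 3611 bp in KO2. KO1 overlapped Control and KO2 lay below both groups. The fall in KO2 was -0.49 ± 0.11 on the log2 scale (limma adjusted p = 0.0121), and it was not called without Control 2 (0.0981) or after quantile normalization (-0.16, adjusted p = 0.345). The site over the start of Zbtb12 held 1288 and 1324 bp of this in Control, 966 and 1086 bp in KO1, and 892 and 1035 bp in KO2. In KO1 the log2 difference was -0.04 (0.831).

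Setdb1 carried the least H3K4me3 of the 10 genes, with 1393 and 1806 bp in Control, 2173 and 1576 bp in KO1, and 1016 and 742 bp in KO2. KO1 overlapped Control, and the KO2 libraries were the lowest. The log2 change in KO2 was -0.61 ± 0.17 (limma adjusted p = 0.0294). It lost its call without Control 1 (0.0519), Control 2 (0.167) or KO2 2 (0.15). A site past the end of the gene, over a start of Cers2, held 195 and 429 bp of these lengths in Control, 482 and 13 bp in KO1, and 423 and 487 bp in KO2, so much of what was left in KO2 lay there. The site at 1.4 to 2.4 kb held 597 and 820 bp in Control, 652 and 581 bp in KO1, and 193 and 0 bp in KO2. At most 26.8% of its promoter window was covered in any library, against at least 85.4% at Cbx5 and 94.5% at Cbx3.

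Atf7ip, whose product stabilises Setdb1 in the nucleus, had 32878 and 31298 bp in Control. It had 16281 and 17905 bp in KO1, and 18209 and 14965 bp in KO2. The knockout lines overlapped each other and lay at about the same distance below Control, with 53.3% and 51.7% of its mean. The log2 changes were -0.89 ± 0.14 in KO1 (limma adjusted p = 0.00438) and -0.94 ± 0.14 in KO2 (0.00153). Without Control 1 the KO1 call was lost (0.0631). Of 33 separate H3K4me3 sites in the gene, all had a Control peak, and 10 were found in 6 of 6 libraries. Another 19 had a Control peak and no knockout peak, but only 8 of these were found in both Control libraries. Control lists were the longest for H3K4me3, and the share of such sites at all genes was not counted. The site at 35.1 to 37.0 kb from the start, over the start of LOC108169175, was covered by 1703 to 1809 bp in every library.

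For Trim28, the corepressor gene, no H3K4me3 difference from Control was called. It had 9608 and 9487 bp in Control, 8342 and 8288 bp in KO1, and 9030 and 8611 bp in KO2. Both knockout lines lay below Control, by log2 differences of -0.19 ± 0.11 (limma adjusted p = 0.262) and -0.11 ± 0.11 (0.484), neither past the threshold. Quantile normalization turned the KO2 value to 0.39, called higher (0.0116).

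Of the heterochromatin protein genes, Cbx5 was called lower in both lines, Cbx3 in KO2 and Cbx1 in neither. Cbx5, which encodes HP1 alpha, had 34307 and 32557 bp in Control, 21733 and 20585 bp in KO1, and 17333 and 12726 bp in KO2. The 3 groups did not overlap. The log2 change was -0.65 ± 0.15 in KO1 (limma adjusted p = 0.0229) and -1.14 ± 0.15 in KO2 (0.00116). In KO1 the call was lost without Control 1 (0.17), Control 2 (0.121), KO1 1 (0.104) or KO1 2 (0.155), and after quantile normalization (0.0881). A site 18.3 to 21.5 kb into the gene held 3235 and 2966 bp in Control, 0 and 564 bp in KO1, and 0 and 157 bp in KO2. The next site, at 21.7 to 27.5 kb, held 5453 and 5388 bp in Control, 4960 and 4239 bp in KO1, and 4021 and 2747 bp in KO2.

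Cbx3, which encodes HP1 gamma, had 11627 and 11796 bp in Control, 9178 and 8962 bp in KO1, and 9288 and 8481 bp in KO2. All 4 knockout libraries lay below both Control libraries. The log2 change of -0.38 ± 0.11 in KO2 passed the test (limma adjusted p = 0.0309), and that of -0.35 ± 0.11 in KO1 did not (0.0606). The KO2 call was lost without Control 1 (0.155), Control 2 (0.166), KO1 1 (0.0697) or KO1 2 (0.07), and quantile normalization turned it to 0.15 (0.251). The KO1 value was called without KO2 1 (0.013) or KO2 2 (0.0137).

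Cbx1, which encodes HP1 beta, had 14868 and 13742 bp in Control, 12718 and 12205 bp in KO1, and 12083 and 9944 bp in KO2. The groups were ordered without overlap, but neither the log2 difference in KO1, -0.19 ± 0.13 (limma adjusted p = 0.347), nor that in KO2, -0.37 ± 0.13 (0.0599), passed the test. Without KO2 1 the KO2 difference was called (-0.50, adjusted p = 0.00495). Morc3, an ATPase gene that takes part in silencing endogenous retroviruses, had 17247 and 17317 bp in Control, 18434 and 17378 bp in KO1, and 14484 and 13915 bp in KO2. KO1 lay above Control and KO2 below it. The log2 differences were 0.05 ± 0.11 (0.799) and -0.28 ± 0.11 (0.0976). Without KO2 1 the KO2 difference was called lower (0.025), and quantile normalization gave 0.52 in KO1 (0.00413) and 0.30 in KO2 (0.0285), both called higher.

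**Figure D2:**
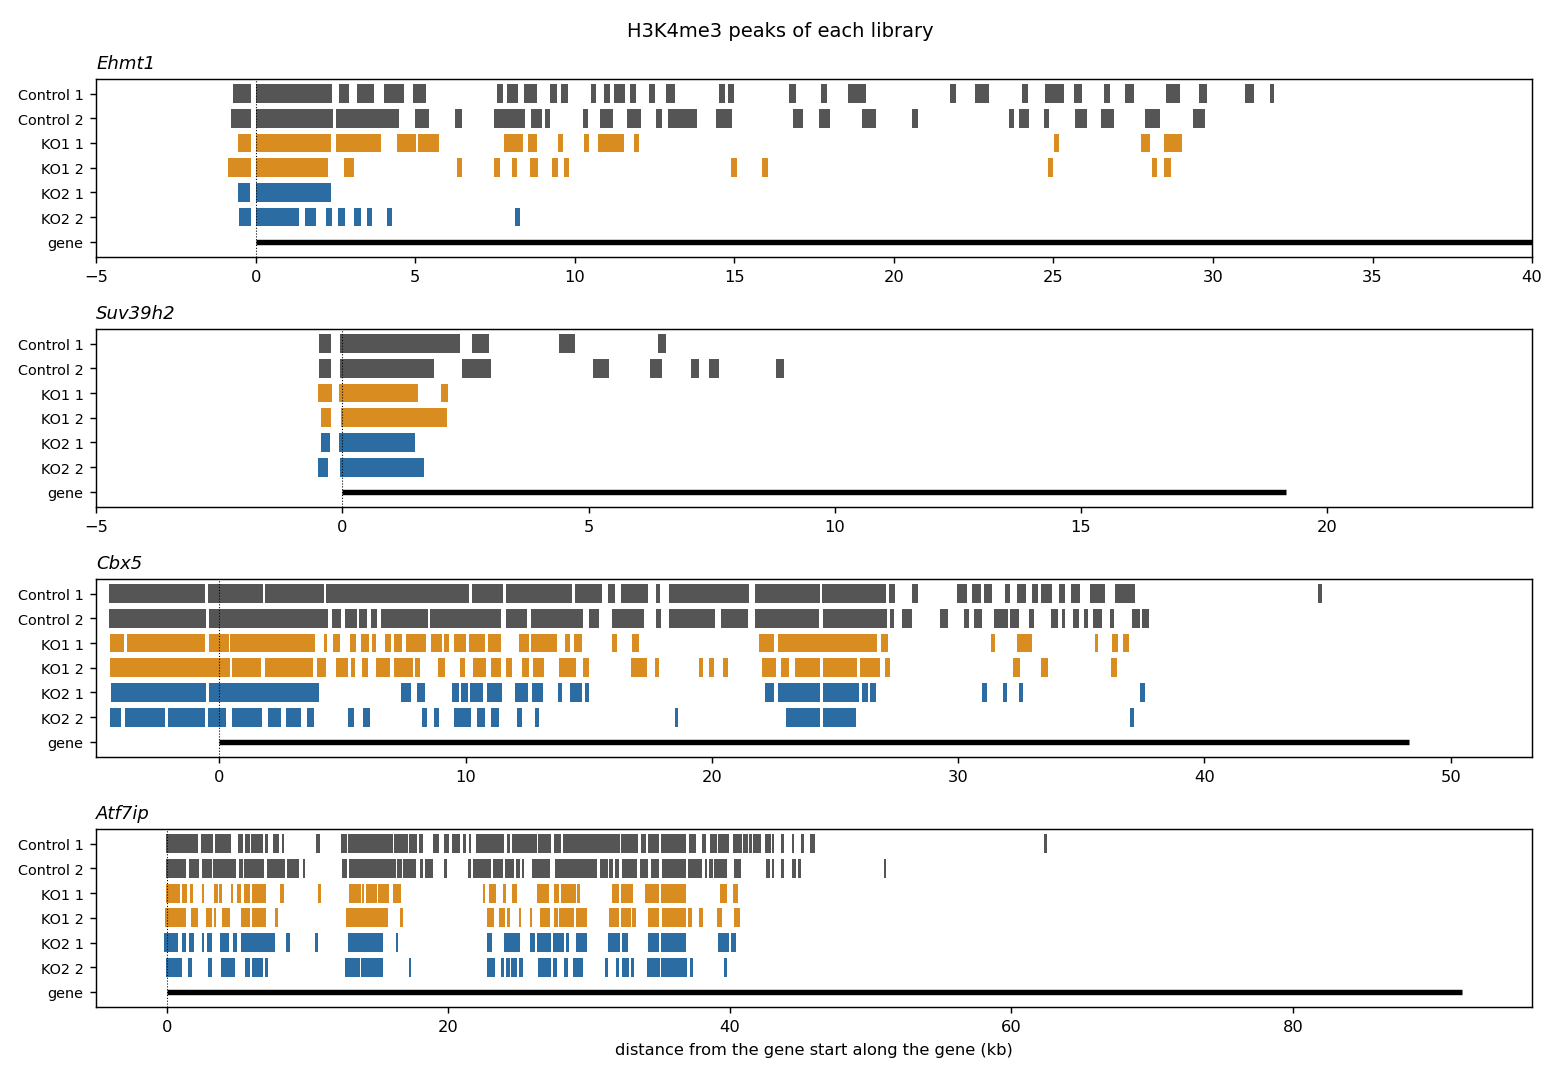
H3K4me3 peaks (bars) of the 6 libraries at 4 members, against distance from the gene start in kb along the direction of transcription. The black line is the gene, drawn to 40 kb at Ehmt1. Peaks at the start are present in every library, and farther into the gene the peaks cover less in KO1 and KO2 than in Control.

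No H3K4me3 change within the promoter windows alone was called, and most of the called members were also called outside them. For H3K27ac, 6 of 8 tested members were called higher in the window in KO2 (5853 of 6634 genes). In KO1 it was 0 of 8 (326 of 6634 genes). Promoter windows reached 2 kb to either side of the gene start, and the rest of each extended gene body was fitted apart, an analysis added after seeing the data. In the promoter window no member passed for H3K4me3 in KO1 or KO2. Of all tested genes, 1.21% and 5.67% were lower there and 0.165% and 1.03% higher. Outside the window, 4 members fell in KO1 (19.8% of all genes) and 6 in KO2 (32.5%), and none rose (1.76% and 4.89%). Ehmt1 outside its promoter window held 9482 and 10687 bp in Control, 6192 and 2593 bp in KO1, and 366 and 1057 bp in KO2. In KO2 this was a log2 change of -3.19 ± 0.41 (limma adjusted p = 0.00253). In KO1 it was -1.22 ± 0.41 (0.0792), not called, with the 2 KO1 libraries far apart. Setdb1, called in KO2 over its whole region, was called neither outside the window (-0.57 ± 0.33, 0.221) nor within it (-0.38 ± 0.23, 0.344).

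The other members that fell outside the promoter window in KO2 were Suv39h2 (log2 change -1.98, limma adjusted p = 0.00229), Cbx5 (-1.36, 0.0029), Atf7ip (-0.98, 0.00351), Ehmt2 (-0.65, 0.015) and Cbx3 (-0.60, 0.0144). In KO1 they were Suv39h2 (-1.62, 0.00929), Atf7ip (-0.94, 0.00916), Cbx5 (-0.75, 0.0327) and Cbx3 (-0.54, 0.0326). Suv39h2 passed the filter on low values there only through its Control libraries, so it had to differ. Promoter coverage at Cbx3 was 94.5% to 95.2% in every library. At Ehmt1 the Control libraries had 63.9% and 64.7%, the KO1 libraries 60.6% and 67.5%, and the KO2 libraries 59.7% and 51.5%. At Atf7ip, with 51.1% and 47.6% in Control, it was 38.2% and 43.3% in KO1 and 40.3% and 34.0% in KO2. Each knockout library was lower there, by a log2 difference of -0.32 ± 0.11 in KO2 that was not called (0.105). Coverage at Ehmt2 was 65.1% and 70.0% in the Control libraries and 69.9% and 72.9% in those of KO1. The KO2 libraries were lower, at 51.4% and 56.4%, and their log2 difference from Control, -0.27 ± 0.07, was not called (0.0651). Peaks were ranked by the authors' -log10 p within each list. The strongest H3K4me3 peak in each member's region lay at the 82.9th percentile or above in every library at all 10 genes. At Trim28, Cbx3 and Cbx5 it lay at the 98.1st or above. The summit of the strongest peak was not always at the member's start. At Cbx3 and Cbx5 it lay past the divergent neighbour's start in 6 of 6 libraries, at Ehmt2 it lay at the start of Zbtb12 in Control 2, and at Atf7ip it lay over LOC108169175 in Control 1 and KO1 1.

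H3K27ac moved the other way. Its peaks covered more of all 10 genes in KO2 than in Control, at a limma adjusted p of 0.05. In KO2 this was the rule across the genome, with 90.0% of 9122 tested genes higher and 0.274% lower. The count of 10 of 10 is thus near the background. In KO1 the peaks covered more of 3 genes, Setdb1, Ehmt2 and Cbx1. Setdb1 and Ehmt2 passed the filter on low values only through the knockout libraries. Setdb1 thus had to differ in both counts. Ehmt2 had to differ in that of KO2, whose libraries alone carried it past the filter. In KO1 13.2% of genes were higher and 0.614% lower. The members' median log2 change was 0.34 in KO1 and 1.14 in KO2, and the medians of all tested genes were 0.22 and 0.98. Both KO2 libraries lay above both Control libraries at 10 of 10 members and at 97.2% of all genes, and both KO1 libraries did at 5 of 10 members and at 47.9% of all genes. Changes are therefore also given relative to the median of all tested genes. Quantile normalization sets all libraries of a mark to 1 distribution. After it, 1 member, Setdb1, was higher for H3K27ac in KO1 and 0 lower (4.49% and 2.09% of all genes). In KO2, 3 were higher, Ehmt2 among them, and 1 lower (16.5% and 18.6%). For H3K4me3 it left 1 higher and 1 lower in KO1 (5.94% and 6.15%), and 2 higher and 5 lower in KO2 (13.4% and 12.1%). With equal numbers of peaks, H3K27ac was higher at 0 of 8 tested members in KO1 (201 of 8200 genes). In KO2 it was higher at 7 of 8 (5882 of 8200). H3K4me3 was then lower at 3 of 10 members in KO1 (1372 of 13630 genes) and at 6 in KO2 (2821 of 13630).

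**Figure D3:**
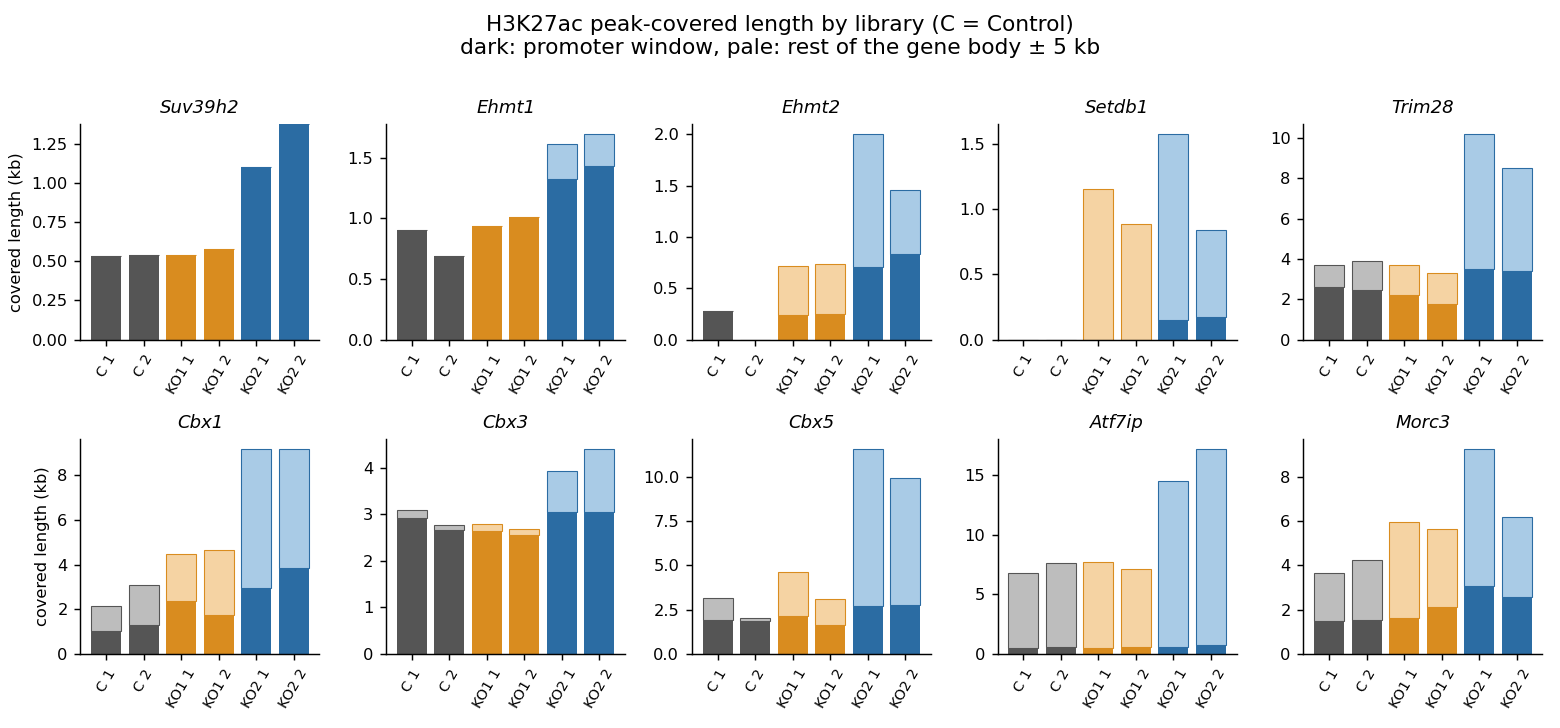
H3K27ac peak-covered length in kb (vertical axis, from 0, own scale per gene) in each of the 6 libraries (horizontal axis). Dark bars are the promoter window and pale bars the rest of the extended gene body. KO2 libraries are the highest at 9 of the 10 genes, and Setdb1 has no H3K27ac peak in either Control library.

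Among the writers, Setdb1 and Ehmt2 had little or no H3K27ac in Control, and both passed the filter on low values only through the knockout libraries. Setdb1 thus had to differ in both lines, and Ehmt2 in KO2. Setdb1 was listed at 0 and 0 bp in Control, and had 1158 and 887 bp in KO1 and 1573 and 844 bp in KO2. Both lines lay above Control and overlapped each other, and the change was called in KO1 (limma adjusted p = 0.00603) and KO2 (0.000235). The KO1 call was lost without KO1 1 (0.0682) and the KO2 call after quantile normalization (0.213). The peaks shared by all 4 knockout libraries lay 12.3 to 12.9 kb into the gene, with 445 and 364 bp in KO1 and 473 and 397 bp in KO2. At the promoter only KO2 had a peak, of 151 and 170 bp. The Cers2 site held 649 bp in KO2 1 and nothing in the other libraries.

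Ehmt2 had 283 and 0 bp in Control, 720 and 732 bp in KO1, and 1999 and 1455 bp in KO2. The 3 groups did not overlap. The log2 change was 0.97 ± 0.25 in KO1 (limma adjusted p = 0.0355) and 1.82 ± 0.25 in KO2 (0.000207), and the KO2 change lay 0.84 above the median of all tested genes. In KO1 it was lost in 5 of 6 fits that each left out 1 library: without Control 2 (0.106), KO1 1 (0.146), KO1 2 (0.124), KO2 1 (0.0917) or KO2 2 (0.0916). A site at -4.9 to -4.3 kb, before the start of Zbtb12, held 680 and 440 bp of the KO2 lengths and nothing in the other groups. Quantile normalization ended the KO1 call too (0.163) and left the KO2 call (0.66, adjusted p = 0.047).

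Suv39h2 and Ehmt1 rose in KO2 by less than the median gene. Suv39h2 had 535 and 538 bp in Control, 537 and 577 bp in KO1, and 1102 and 1374 bp in KO2, in 1 peak at the start in every library. Ehmt1 had 901 and 691 bp in Control, 938 and 1006 bp in KO1, and 1609 and 1690 bp in KO2. KO1 overlapped Control at Suv39h2 and lay just above it at Ehmt1, and KO2 held 230.8% and 207.2% of the Control mean. The log2 changes in KO2 were 0.74 ± 0.17 (limma adjusted p = 0.00362) and 0.73 ± 0.16 (0.00256). Relative to the median of all tested genes they were -0.24 and -0.25, and quantile normalization turned them to -0.32 and -0.29, neither called. Ehmt1 thus lost H3K4me3 over its body while the H3K27ac peaks at its start widened from 694 and 691 bp in Control to 1105 and 1024 bp in KO2.

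Atf7ip had 6769 and 7659 bp in Control, 7750 and 7168 bp in KO1, and 14551 and 17217 bp in KO2. KO1 overlapped Control and KO2 lay far above both. The log2 change in KO2 was 1.08 ± 0.12 (limma adjusted p = 7.68e-05), 0.10 above the median gene, and -0.09 after quantile normalization (0.526). Its promoter window stayed at 12.9% to 18.9% in all libraries. The rise lay at sites inside the gene, such as that at 5.4 to 7.5 kb, which held 856 and 967 bp in Control, 1131 and 1242 bp in KO1, and 2103 and 1739 bp in KO2.

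Trim28 had 3682 and 3884 bp in Control, 3700 and 3294 bp in KO1, and 10169 and 8492 bp in KO2. KO1 overlapped Control, and KO2 held 246.6% of the Control mean. The log2 difference was -0.10 ± 0.13 in KO1 (limma adjusted p = 0.654) and 1.19 ± 0.13 in KO2 (7.53e-05), the latter 0.21 above the median of all genes and 0.02 above that of chromosome 7, where the median was 1.18. After quantile normalization the KO2 value was 0.14 (0.337). Of 15 separate sites, 5 were found in both KO2 libraries and neither Control library. How often such sites occur at all genes was not counted, and the H3K27ac lists of KO2 were the longest. Outside the promoter window it held 1091 and 1430 bp in Control, 1467 and 1521 bp in KO1, and 6674 and 5069 bp in KO2, part of which lies over Chmp2a.

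Cbx5 rose the most in KO2 among the members with H3K27ac in every library. It had 3159 and 2029 bp in Control, 4653 and 3129 bp in KO1, and 11579 and 9961 bp in KO2. KO1 overlapped Control, and KO2 stood apart. The log2 change was 1.89 ± 0.22 in KO2 (limma adjusted p = 9.34e-05), 0.90 above the median gene, and it remained called after quantile normalization (0.82, adjusted p = 0.00854). In KO1 the difference was 0.51 ± 0.22 (0.155). The peak on the 250 bases shown above covered them fully in 6 of 6 libraries, and 10 of its 23 sites were found in both KO2 libraries and neither Control library. The share of such sites at all genes was not counted, and the KO2 lists were the longest for this mark. Sites at 22.7 to 24.4 kb and 24.5 to 26.2 kb into the gene held 387 and 464 bp in Control 1, nothing in Control 2, 789 to 825 bp and 696 to 697 bp in KO1, and 1435 to 1674 bp and 1350 to 1739 bp in KO2. At those places H3K4me3 was also present in all 6 libraries.

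Cbx1 had 2140 and 3076 bp in Control, 4492 and 4657 bp in KO1, and 9176 and 9160 bp in KO2. The 3 groups were ordered without overlap. The log2 change was 0.72 ± 0.15 in KO1 (limma adjusted p = 0.0198) and 1.65 ± 0.15 in KO2 (3.93e-05), the latter 0.67 above the median gene and still called after quantile normalization (0.59, adjusted p = 0.0137). The KO1 call was lost without Control 1 (0.063), KO1 1 (0.0993), KO1 2 (0.0892), KO2 1 (0.0717) or KO2 2 (0.0736), and after quantile normalization (0.0775). On the upstream side, 0.1 to 3.0 kb before the start, the peaks covered 0 and 152 bp in Control, 1067 and 888 bp in KO1, and 1584 and 2555 bp in KO2. Promoter window coverage went from 26.2% and 32.4% in Control to 59.5% and 43.2% in KO1 and 74.0% and 96.4% in KO2.

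Cbx3 stood at the other end. It had 3083 and 2775 bp in Control, 2780 and 2685 bp in KO1, and 3920 and 4399 bp in KO2. KO1 overlapped Control and KO2 lay above both. The log2 change in KO2, 0.44 ± 0.13 (limma adjusted p = 0.0108), was 0.54 below the median gene, and quantile normalization turned it to a called fall (-0.62, adjusted p = 0.00749). The call was lost without Control 2 (0.0533) or KO2 2 (0.0759). Its strongest peak ranked at the 98.5th percentile or above of its own list, by the authors' -log10 p, in every library. The summit of that peak lay at -1034 to -331 bp from the Cbx3 start, in 5 of 6 libraries past the start of Hnrnpa2b1. Morc3 had 3670 and 4243 bp in Control, 5933 and 5643 bp in KO1, and 9247 and 6172 bp in KO2. Both lines lay above Control, with KO2 1 far above KO2 2. The log2 difference was 0.50 ± 0.18 in KO1 (0.0968) and 0.86 ± 0.18 in KO2 (0.00181), 0.12 below the median gene, and -0.18 after quantile normalization (0.386).

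**Figure D4:**
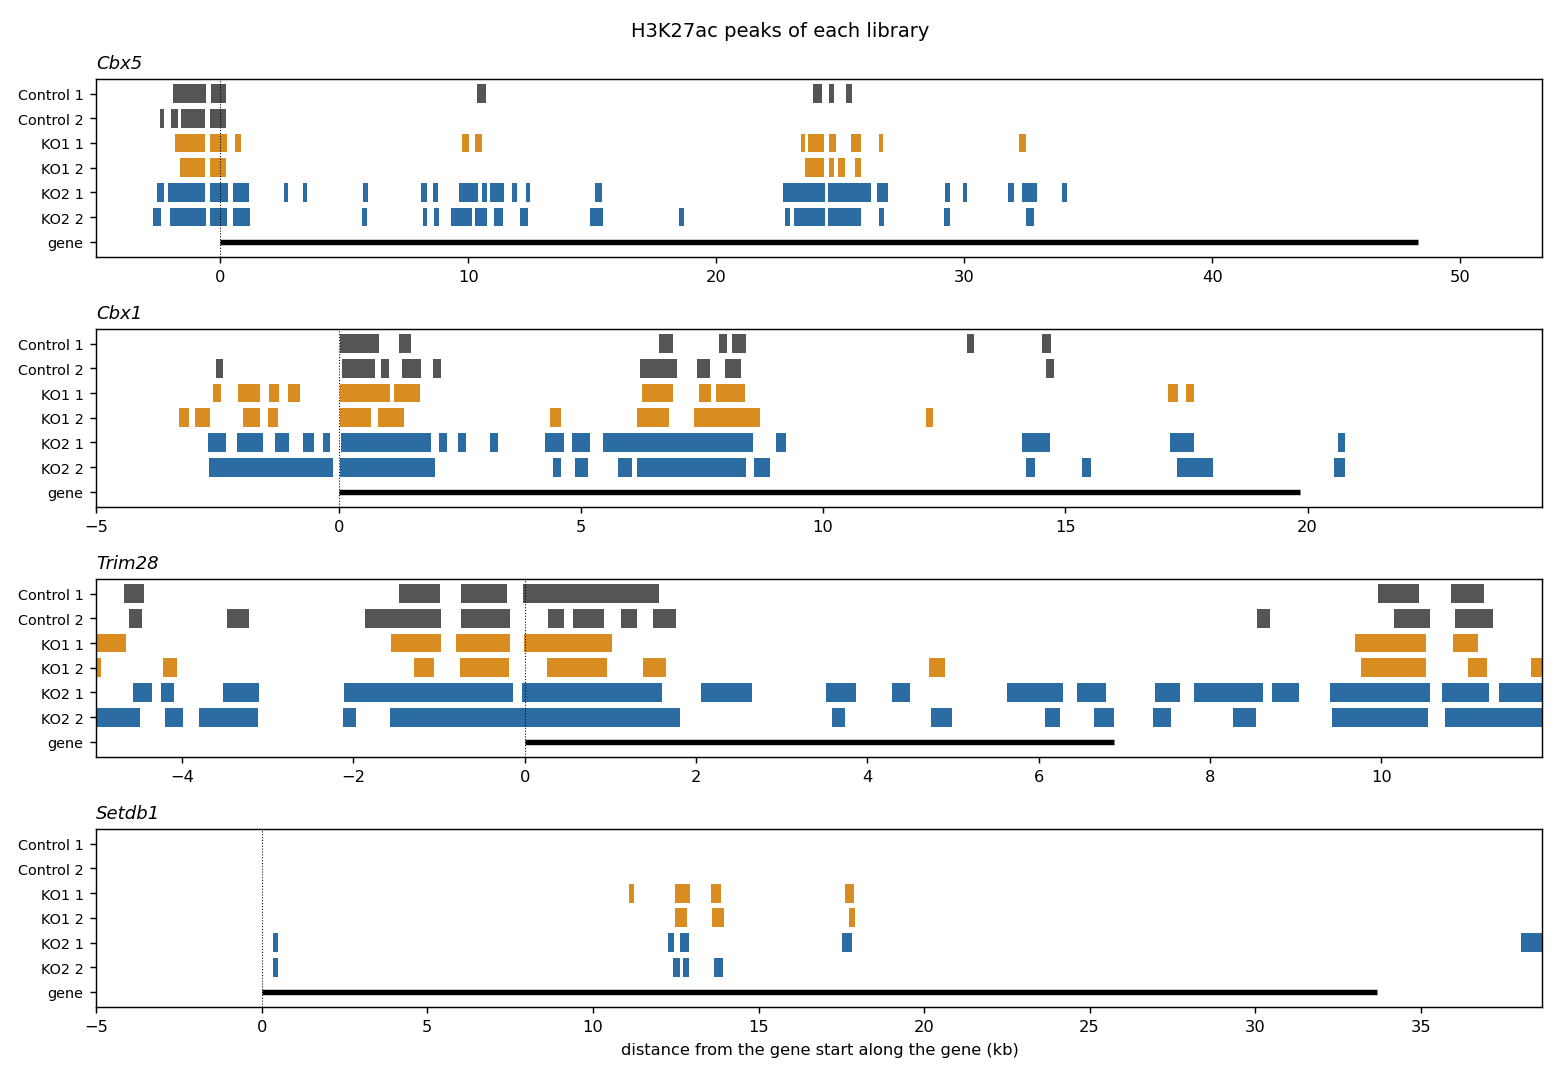
H3K27ac peaks (bars) of the 6 libraries at 4 members, against distance from the gene start in kb along the direction of transcription, with the gene as a black line. KO2 libraries carry peaks inside Cbx5, Cbx1 and Trim28 that Control libraries lack, and Setdb1 has peaks in the knockout libraries alone.

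The lines were also compared with each other. H3K27ac was higher in KO2 than in KO1 at 8 of 10 members (background 78.4%), and the log2 difference at the other two, Setdb1 and Morc3, was 0.14 (limma adjusted p = 0.593) and 0.36 (0.0865). After quantile normalization 1 member, Trim28, remained higher (0.45, adjusted p = 0.0207) and 0 were lower, against 11.0% and 10.6% of all genes. H3K4me3 was lower in KO2 than in KO1 at Ehmt1 (-1.08 ± 0.19, adjusted p = 0.0174) and Setdb1 (-0.78 ± 0.17, 0.0382), which is 2 of 10 against 2.56% of all genes, and higher at none (3.08%). Neither difference was called with peaks of a -log10 q of at least 5 or in the promoter window alone. The Ehmt1 difference was not called without KO1 1 (0.0618). The Setdb1 difference was not called without Control 1 (0.0555), Control 2 (0.0567), KO1 1 (0.2), KO1 2 (0.0585) or KO2 2 (0.129). At Cbx5 the H3K4me3 difference was -0.50 ± 0.15 (0.105), called without KO2 1 (0.00226). At Atf7ip it was -0.05 ± 0.14 (0.892).

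**Figure D5:**
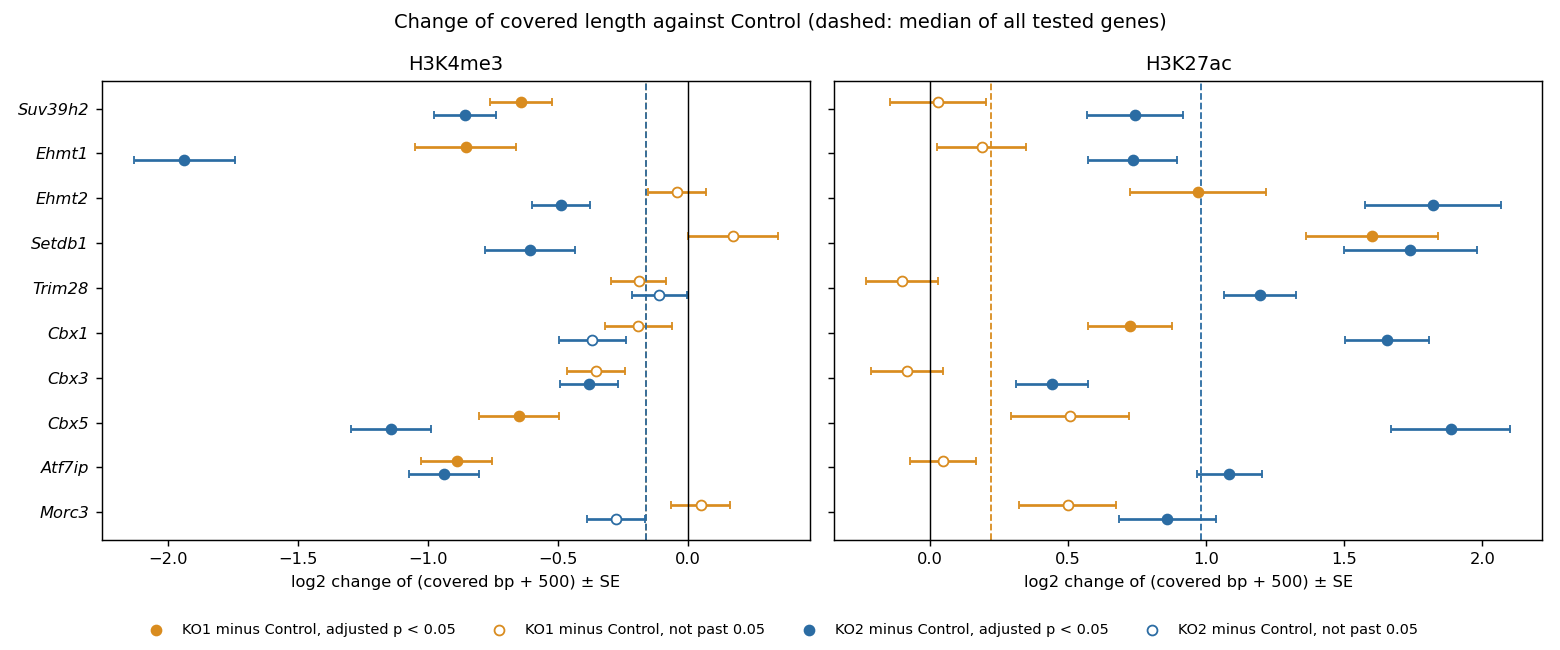
Log2 change of covered length (horizontal axis, bp + 500) from Control to KO1 (orange) and KO2 (blue) at each member, with SE bars from limma. Filled points passed an adjusted p of 0.05, open points did not, and dashed lines are the medians of all tested genes (-0.16 and -0.16 for H3K4me3, 0.22 and 0.98 for H3K27ac). Ehmt1 lies farthest to the left for H3K4me3 in KO2, and Cbx3 lies farthest below the median for H3K27ac in KO2.

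A list of 55 other genes of the same pathways gave the setting. H3K4me3 was tested at 53 of them, of which 15 were lower in KO1 and 29 in KO2, with 0 and 1 higher, where 15.4% and 25.1% of all tested genes were lower and 1.76% and 5.11% higher. Their median log2 change was -0.26 in KO1 and -0.42 in KO2. By group, the fall in KO2 took in 5 of 9 writers and partners, 4 of 6 HUSH and MORC genes, 4 of 10 KRAB zinc finger and Trim28-linked genes, 7 of 9 HP1 partners, 4 of 7 H3.3 and chaperone genes and 4 of 11 demethylases. Prdm2, a writer-family gene, had 16339 and 12810 bp in Control, 5111 and 5280 bp in KO1, and 4613 and 3571 bp in KO2 (log2 change -1.39 and -1.71, limma adjusted p = 0.00134 and 0.000266). Cdyl, whose product binds methylated H3K9, changed by -0.90 (0.00469) and -1.50 (0.00031). Smarcad1, a remodeller that works with Trim28, changed by -0.84 (0.00431) and -1.17 (0.000542), Zfp644 by -0.97 in KO1 (0.0164) and Jmjd1c, a demethylase-family gene, by -1.17 in KO2 (0.000807). Ythdc1 fell in both lines, by -0.59 (0.0136) and -0.75 (0.0026). The gene that rose in KO2 was Prdm16, with 1990 and 1769 bp in Control, 1977 and 1158 bp in KO1, and 6215 and 3790 bp in KO2 (1.18, adjusted p = 0.00663).

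H3K27ac was tested at 50 of the 55 genes, of which 6 were higher in KO1 and 48 in KO2, and none was lower. Of all tested genes 13.2% and 90.0% were higher, so both counts are near the background. Their median log2 change was 0.15 in KO1 and 0.87 in KO2, both under the medians of all tested genes. Atrx, the H3.3 chaperone and remodeller gene, had 1213 and 1021 bp in Control, 3877 and 3203 bp in KO1, and 7884 and 8379 bp in KO2. It was the largest rise of the list in both lines (log2 change 1.32 and 2.42, limma adjusted p = 0.00186 and 9.39e-06). In KO1 the next were Kdm4d, at 0 and 0 bp in Control and 706 and 342 bp in KO1 (0.0247), Zfp932, at 0 and 0 bp and 321 and 358 bp (0.0405), and Pphln1 (0.70, 0.0305). Kdm4d and Zfp932 passed the filter only through the knockout libraries, so they had to differ. In KO2 they were Prdm16 (2.10, 1.45e-05), Chaf1b (1.83, 0.000451) and the DNA methyltransferase gene Dnmt1 (1.78, 0.000208). Chaf1b had 298 and 590 bp in Control, 1096 and 371 bp in KO1, and 3102 and 2557 bp in KO2. Its Control level lies under the filter, which it passed through the knockout libraries, so the filter favoured its rise.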

How the data were processed

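Per the submitters' processing notes, reads were aligned to mm10 with tools that included CASAVA, Trimmomatic 0.38, Bowtie 1.2.2 and MACS2 (no version given in the sources used here). Peaks were called by the authors on each of the 12 immunoprecipitated libraries separately. Per the labels' protocols, chromatin was precipitated with Abcam antibodies and spike-in chromatin was added, and whether spike-in or input entered the peak calling is not stated. Each deposited list gives a peak's fold enrichment (a ratio), its -log10 p and -log10 q, and a score, and these were used only within their own list.

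Here the peak-covered length of each gene body with 5 kb on each side was summed, for 21887 protein-coding genes of GRCm38.p6 (RefSeq). Genes whose mean reached 500 bp over the 6 libraries of a mark were fitted as log2(bp + 500), which understates changes of low values, with limma 3.58.1 (lmFit and eBayes with a trend, R 4.3.3) over all 3 genotypes, with no block, at a Benjamini-Hochberg adjusted p of 0.05. Each change has 2 libraries a group. The promoter window of 4001 bp was centred on the RefSeq start for 17492 genes, and elsewhere, for 4395 genes, on the place with the most H3K4me3. The fit was tested on simulated data with log2 changes of 1 and 2 set in KO2 at 100 genes each. It recovered 56% and 84% of them for H3K27ac and 74% and 95% for H3K4me3. False calls were 1.41% and 5.06% of the calls for the 2 marks. All other genes were left unchanged there, unlike the KO2 data for H3K27ac, where 90.0% of genes were higher. Libraries with the same replicate number did not deviate together, so the numbers were not taken to pair them. Alternatives were quantile normalization, subtraction of chromosome medians, equal numbers of peaks, peaks with a -log10 q of at least 5, an extension of 2 kb, a pseudocount of 100 bp, no filter, the promoter window, the rest of the region (added after seeing the data), a replicate block, and leaving out each library. The members and pathway lists were chosen with earlier results of these data known. All members are described. From the pathway list, up to 4 called genes per direction, mark and comparison with the largest change are named.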

Additional observations from a re-analysis of the deposited data

Results flagged for a closer look

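At several members KO1 and KO2 differed in their change from Control by a test of the difference itself (limma, KO2 minus KO1, adjusted p under 0.05, with 2 libraries a line and shared Control). For H3K27ac the differences were 1.38 at Cbx5, 1.29 at Trim28, 1.04 at Atf7ip, 0.93 at Cbx1, 0.85 at Ehmt2, 0.71 at Suv39h2, 0.55 at Ehmt1 and 0.53 at Cbx3, all on the log2 scale, and 78.4% of all genes differed in that direction. After quantile normalization Trim28 alone was called (0.45). For H3K4me3 the differences were -1.08 at Ehmt1 and -0.78 at Setdb1, the direction of 2.56% of all genes. With peaks of a -log10 q of at least 5, 0 of 10 members were lower (128 of 13515 genes). In the promoter window it was also 0 of 10 (30 of 12109 genes).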

How the results depend on the processing

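Ehmt1, Suv39h2, Cbx5 and Atf7ip were called lower for H3K4me3 in KO2 after quantile normalization, as were 12.1% of all genes. They were also called lower after subtraction of chromosome medians, as were 2367 of 13698 genes. In the 6 fits that left out 1 library, the log2 change ran from -2.01 to -1.86 at Ehmt1 and -0.93 to -0.79 at Suv39h2. It ran from -1.36 to -0.93 at Cbx5 and -1.075 to -0.80 at Atf7ip. None of the 4 was called in the promoter window alone, where 5.67% of all genes were lower. The number of all genes called depended on the setting. For H3K27ac in KO1 it was 1264, and 601 after quantile normalization, 419 after chromosome medians, 228 with equal numbers of peaks, 775 with the stricter peaks, 582 with no filter, 338 in the promoter window and 715 outside it, the last chosen after seeing the data. For H3K27ac in KO2 it was 8239, and 3201, 2874 and 4055 under quantile normalization, chromosome medians and outside the promoter window. For KO2 minus KO1 it was 7183, and 1968, 1531 and 3487 in the same order and 4734 with equal numbers of peaks. For H3K4me3 in KO1 it was 2354, and 1411 with the stricter peaks and 166 in the promoter window. In KO2 it was 4133, and 811 in the promoter window. For KO2 minus KO1 it was 773, and 1782, 1379 and 471 under quantile normalization, chromosome medians and outside the promoter window, 367 with the stricter peaks and 80 in the promoter window. Leaving out 1 library gave 184 to 1061 for H3K27ac in KO1, 6479 to 8471 in KO2 and 4587 to 7705 for KO2 minus KO1, and 521 to 3381, 1921 to 4442 and 194 to 1272 for H3K4me3 in the same order.

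Values that turned sign were these, on the log2 scale. For H3K27ac in KO2 quantile normalization gave -0.094 at Atf7ip, -0.62 at Cbx3, -0.29 at Ehmt1, -0.18 at Morc3 and -0.32 at Suv39h2, and chromosome medians gave -0.46 at Cbx3, -0.23 at Ehmt1, -0.27 at Morc3, -0.22 at Suv39h2 and -0.019 at Trim28. For KO2 minus KO1 quantile normalization gave -0.32 at Cbx3, -0.23 at Ehmt1 and -0.066 at Suv39h2, and chromosome medians gave -0.23 at Cbx3 and -0.16 at Ehmt1. For H3K4me3 in KO2 quantile normalization gave 0.15 at Cbx3, 0.30 at Morc3 and 0.39 at Trim28, and the promoter window gave 0.001 at Cbx3. The cause was not tested. Correlations of same-numbered libraries' deviations ran from -0.0097 to 0.0282. With the replicate block 1100, 8176 and 7099 of 9122 genes were called for H3K27ac (KO1, KO2, KO2 minus KO1). For H3K4me3 it was 2730, 4385 and 1112 of 13698 in the same order. The block changed the members called from 3 to 4, 10 to 10 and 8 to 8 for H3K27ac, and from 4 to 4, 7 to 8 and 2 to 3 for H3K4me3. With depth unknown, a shorter covered length can reflect fewer reads as well as less mark, and these cannot be told apart in peak lists.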

Other observations

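Suv39h1, the X-linked relative of Suv39h2, had less H3K4me3 in KO2, with 4796 and 4419 bp in Control, 3871 and 4665 bp in KO1, and 2589 and 2029 bp in KO2. The difference between the lines was called (KO2 minus KO1, log2 -0.77 ± 0.14, limma adjusted p = 0.0188). Uhrf1, which links H3K9 methylation to DNA methylation, also differed between the lines (-0.66, 0.0313), as did the demethylase gene Kdm3a (-0.54, 0.0361) and Cdyl (-0.60, 0.043), while Prdm16 was higher in KO2 (1.41, 0.0139).

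Over the 12 libraries, the genes whose profile of both marks lay nearest to the members' median profile were Mbd3, Fubp3 and B3gnt2, out of 9063 compared, with root-mean-square log2 differences of 0.077, 0.079 and 0.08. The members themselves lay at 0.188 (Cbx1) to 0.453 (Ehmt1). Mbd3 had 6186 and 6342 bp of H3K4me3 in Control, 5114 and 5070 bp in KO1, and 4254 and 4668 bp in KO2.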
